A study of Aspergillus nidulans with 6 samples.

Results

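The gene pst2 (AN0297 in the deposited table) carries the symbol of a quinone reductase gene, and it is 1 of 10748 genes with an AN number. It was selected on its read counts and RPKM values in these same libraries, for a very large difference between tyrosol-treated and untreated mycelium that made it one of the most abundant transcripts. Total RNA was sequenced from mycelium of the wild type strain FGSC A4 of Aspergillus nidulans, a filamentous mould, grown in shaken Barratt's minimal broth at 37 °C. In the treated group, 3 libraries came from cultures given 35 mM tyrosol in the exponential phase, and 3 libraries came from untreated cultures of the same strain. Tyrosol is a phenolic alcohol that fungi can make from tyrosine and release into the medium. The libraries held 9353438 to 11917409 counted reads. The table heads its columns T and K, which were read as tyrosol and control; the labels do not state this. The labels do not say whether the replicates were separate cultures, so a p-value here covers the spread among these libraries and no more, and that spread may be technical.

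Proteins named Pst2 belong to the flavodoxin-like proteins, small enzymes that carry a flavin and pass electrons from NADH or NADPH to quinones. A full reduction of the quinone ring to a hydroquinone avoids the semiquinone radical, which would otherwise hand its electron to oxygen. In Saccharomyces cerevisiae, PST2 is induced by oxidative stress through the transcription factor Yap1. In Candida albicans, the related proteins reduce ubiquinone and protect the fungus against peroxidation of its membrane lipids. These roles are known from those yeasts. AN0297 shares the symbol in the reference table, and its protein was not compared with the yeast ones.

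The pst2 transcript was among the most abundant messages of the tyrosol libraries and a moderately expressed one in the untreated libraries. It had 48049, 53476 and 52393 reads in tyrosol replicates 1, 2 and 3, against 802, 704 and 583 reads in untreated replicates 1, 2 and 3. Per length and depth, as RPKM (reads per kilobase of the listed length, scaled to the total of counted reads), this came to 4443, 4677 and 4477 in the tyrosol libraries and 66.2, 58.2 and 61.3 in the untreated libraries. All 3 tyrosol libraries lay far above all 3 untreated ones, and the values within each group lay close together. On TMM-scaled log2 CPM (counts scaled to library depth), the groups did not overlap for 84.8% of 8905 tested features. The mean was 4533 ± 126 RPKM with tyrosol and 61.9 ± 4.04 RPKM without (SD, n = 3 each), a ratio of 73.3. The log2 fold change with TMM scaling, which sets the libraries on a common scale through the bulk of their genes, was 6.42 ± 0.10 (SE). It stands for a somewhat larger fold than the ratio of RPKM means because RPKM is scaled by library totals. Since the gene was picked for this difference, it is given with no test. For background, 40.6% of the tested features were called raised, and 0.887% were called raised with a fold of at least 64.

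**Figure D1:**
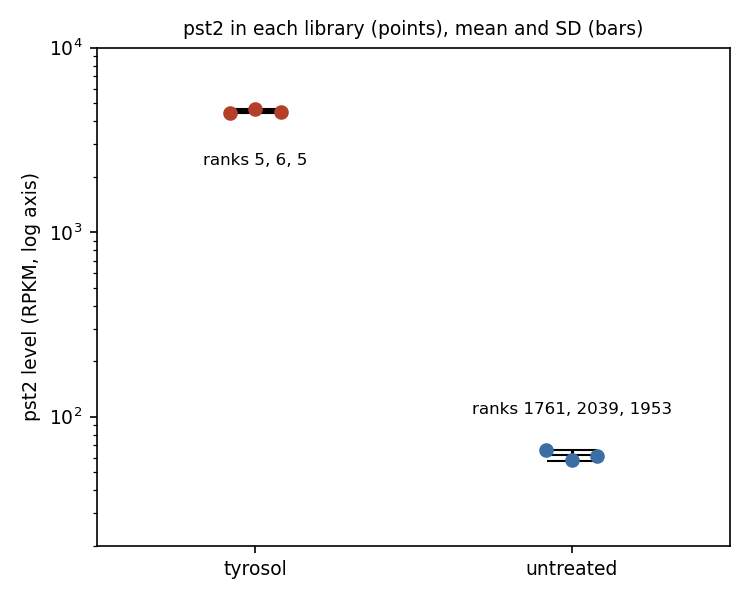
Level of pst2 in RPKM on a log axis in each library (points), with the group mean and SD as bars and the rank of pst2 among AN genes in replicates 1, 2 and 3 written beside them. The 3 tyrosol libraries sit between 4443 and 4677 RPKM and the 3 untreated libraries between 58.2 and 66.2 RPKM.

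As a share of all reads counted to AN genes, pst2 took 0.452% (0.448 to 0.456), 0.476% (0.472 to 0.480) and 0.455% (0.452 to 0.459) in tyrosol replicates 1, 2 and 3. In untreated replicates 1, 2 and 3 it took 0.00673% (0.00628 to 0.00721), 0.00591% (0.00549 to 0.00637) and 0.00623% (0.00575 to 0.00676). The ranges are 95% Wilson intervals and cover counting error only. About 1 AN gene read in 221, 210 and 220 therefore came from pst2 with tyrosol, and 1 in 14859, 16909 and 16043 without. Of the RPKM summed over AN genes, a measure that corrects for length, pst2 made up 0.663 ± 0.0180% with tyrosol and 0.00866 ± 0.000789% without (SD, n = 3 each).

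The spread of pst2 between replicates was about that of other genes of its level. In the tyrosol libraries its coefficient of variation was 2.79%, where counting error alone gives 0.441%. Among 10 other genes with a tyrosol mean within 1.5 times that of pst2, the median coefficient was 2.37%, and 5 of the 10 varied less than pst2. In the untreated libraries the coefficient was 6.53%, against 3.79% from counting alone. There, 1490 genes had a mean within 1.5 times that of pst2, their median coefficient was 9.15%, and 453 of them varied less than pst2.

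Ranked by RPKM among the AN genes, with 1 the highest, pst2 was 5th, 6th and 5th in tyrosol replicates 1, 2 and 3. It was 1761st, 2039th and 1953rd in untreated replicates 1, 2 and 3. Most genes were therefore below it in both conditions: 99.9% or more of AN genes in each tyrosol library, and 81.0% to 83.6% in the untreated libraries. Ranked by read count, which favours long genes, pst2 averaged position 12.7 with tyrosol and 3257 without. In relation to the AN gene of median level, pst2 stood 393, 410 and 398 times higher in the tyrosol libraries and 4.44, 3.91 and 4.15 times higher in the untreated ones.

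**Figure D2:**
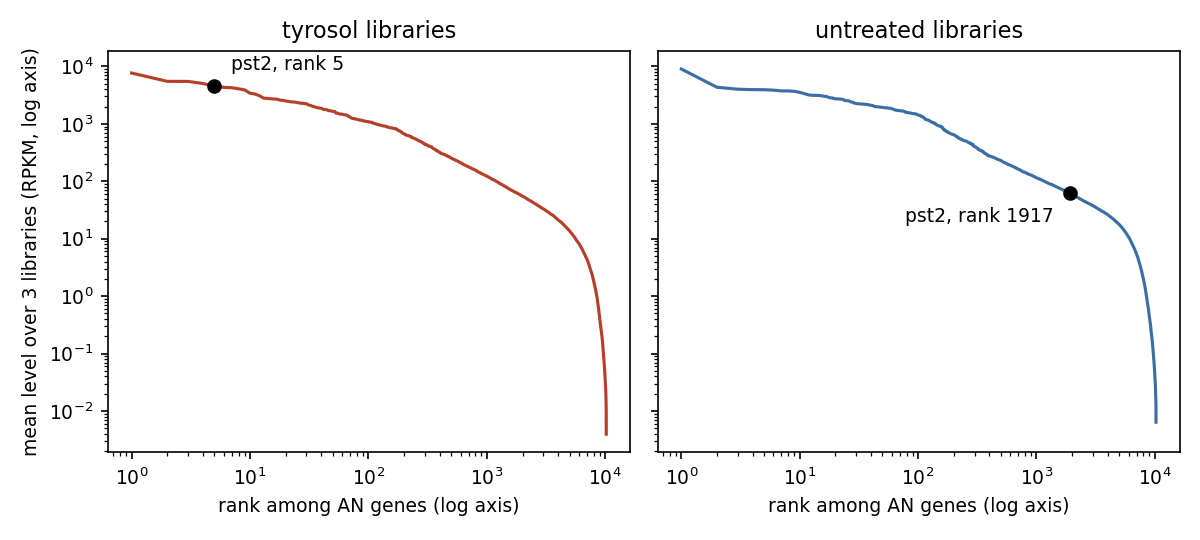
Mean RPKM of each AN gene against its rank, both on log axes, in the tyrosol libraries (left) and the untreated libraries (right), each over 3 libraries; the black point is pst2. The gene lies at rank 5 with tyrosol, near the head of the curve, and at rank 1917 without, on its slope.

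The genes next to pst2 in the order of tyrosol levels were mostly abundant in both conditions. Directly above it stood AN6669, with 5146, 4964 and 5038 RPKM in the tyrosol libraries and 385, 335 and 412 RPKM in the untreated libraries. Next above was thiA, a gene of thiamine (vitamin B1) synthesis, at 5489, 5514 and 5453 RPKM with tyrosol and 2664, 2487 and 2411 RPKM without. The tyrosol ranges of both lay wholly above that of pst2, as did the range of AN4575, at 5643, 5138 and 5728 RPKM with tyrosol and 8641, 9044 and 9377 RPKM without.

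Directly below pst2 was AN8705, at 4431, 4358 and 4185 RPKM with tyrosol and 2571, 3296 and 3465 RPKM without. Its tyrosol range ended just under that of pst2. The range of AN8009, next below at 4160, 4460 and 4179 RPKM with tyrosol and 3914, 4184 and 3941 RPKM without, overlapped that of pst2, so AN8009 and pst2 were not separated by their ranges, although pst2 was the higher of the pair in each of the 3 tyrosol libraries. The third gene below, AN5245, owed its place to 1 library: it had 657, 10805.5 and 794 RPKM in tyrosol replicates 1, 2 and 3 and 1178, 348 and 467 RPKM in untreated replicates 1, 2 and 3. In tyrosol replicate 2 it was the highest AN gene, and pst2 ranked 6th there. In tyrosol replicates 1 and 3 the highest gene was AN4218, at 7596 and 7779 RPKM, and pst2 reached 58.5% and 57.6% of its level.

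In the untreated libraries the genes next to pst2 in the order did not differ from it beyond their spread, and they went separate ways with tyrosol. The 3 above it were AN9506, AN6865 and AN5583, and the 3 below it AN9076, AN6620 and AN0933. All 6 had untreated ranges that overlapped that of pst2. With edgeR's quasi-likelihood test and Benjamini-Hochberg adjustment over all features, AN6620 was lowered to 1.69, 2.06 and 2.01 RPKM in the tyrosol libraries, against 54.4, 63.4 and 67.4 RPKM in the untreated ones (log2 fold change -4.77 ± 0.14, adjusted p = 5.7e-12). AN0933 was raised to 221, 224 and 225 RPKM with tyrosol, against 61.2, 59.7 and 64.3 RPKM without (2.08 ± 0.08, adjusted p = 4.7e-11). AN6865 and AN9506 were lowered by the same test, and AN5583 was raised by 0.36 ± 0.10 on the log2 scale (adjusted p = 0.006). AN9076 did not pass (0.19 ± 0.11, adjusted p = 0.11), though it was called raised without tyrosol replicate 3 or untreated replicate 3 (adjusted p = 0.035 and 0.031). AN5583 was not called with library size only or with limma on log2(RPKM + 1) (adjusted p = 0.23 and 0.24).

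The wider set of genes with an untreated level like that of pst2 shows how far it moved from its starting neighbours. It was picked for this move. The 1490 other AN genes with an untreated mean between 41.2 and 92.8 RPKM had a median of 40.1 RPKM in the tyrosol libraries and ran from 1.18 to 1131 RPKM. The highest of them, AN2343, reached 1131 RPKM, and the tyrosol mean of pst2 was 4.01 times that. Their log2 fold changes had a median of -0.32 and lay between -2.35 and 1.24 for the middle part of the set from the 10th to the 90th percentile. Of the 1490, 501 were raised, 787 lowered and 202 did not pass, where 40.6% of all tested features were raised and 42.9% lowered.

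**Figure D3:**
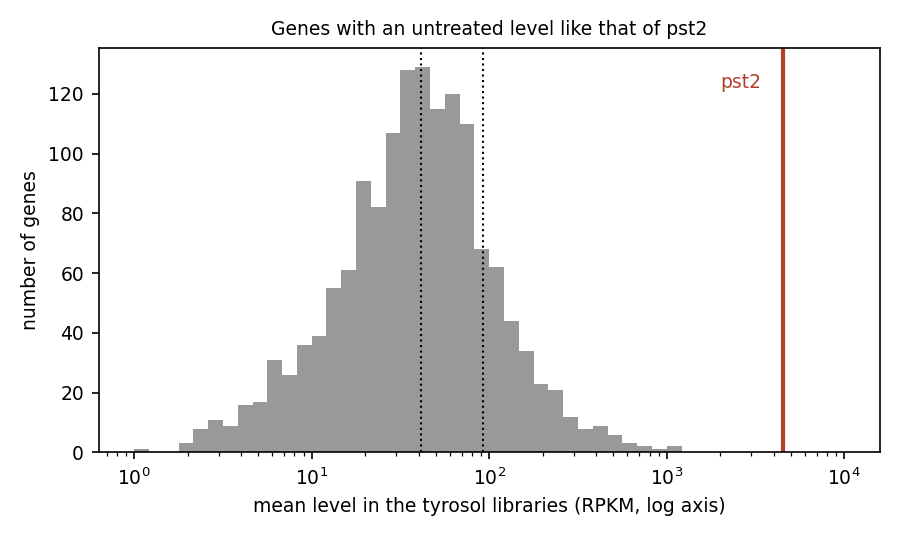
Histogram of the mean tyrosol level (RPKM, log axis) of the 1490 AN genes whose mean untreated level was within 1.5 times that of pst2; dotted lines mark the ends of that untreated window and the red line marks pst2. The genes centre on a median of 40.1 RPKM and end at 1131 RPKM, with pst2 at 4533 RPKM.

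Genes with larger fold changes than pst2 began from lower levels. The gene was picked for a large rise to high abundance, so its high places in the orders below follow from that choice. By log2 fold change pst2 was 64th of 8899 AN genes tested. Among the 1917 of these with an untreated mean at least that of pst2 it was the first, followed by AN2343 at 4.40. The 63 genes with larger log2 fold changes had tyrosol means of at most 3307 RPKM, the level of AN5940. No AN gene had both a tyrosol mean and a log2 fold change as large as those of pst2. By the gain in mean RPKM, tyrosol minus untreated, pst2 was the second AN gene with 4471, after AN6669 with 4672. The next gain was 3421, that of AN5245, which rested on tyrosol replicate 2. The gain of pst2 was 1.90% of the summed gains of all AN genes that gained. Of the 20 AN genes with the highest tyrosol means, 6 were also among the 20 highest without tyrosol. Within those 20, AN5940 and AN8764 came from lower untreated ranks than pst2, 6747 and 3543, against 1917 for pst2.

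The genes whose pattern over the 6 libraries was most like that of pst2 were searched by the root mean square difference of log2 CPM, each gene centred on its own mean. The closest was AN4355, with a difference of 0.08 on the log2 scale. It had 241, 220 and 216 RPKM in the tyrosol libraries and 3.34, 2.74 and 3.16 RPKM in the untreated libraries. The next were AN0482 (0.15), AN8764 (0.16), AN8604 (0.17) and AN0764 (0.17). None of the 5 has a symbol in the reference table. This measure picks genes of like fold change, so their log2 fold changes of 6.23 to 6.74 follow from the choice. Their levels differed widely: AN0482 had 62.0, 66.0 and 64.1 RPKM with tyrosol and 0.817, 0.773 and 0.607 RPKM without.

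By shape alone, AN4355 and AN0482 were closer to pst2 than AN8764 was. When level was counted as well, AN8764 came nearest. It had 2664, 2746 and 2647 RPKM in the tyrosol libraries and 28.6, 30.9 and 31.8 RPKM in the untreated libraries. On log2(RPKM + 1) without centring it was the closest of all features, with a root mean square difference of 0.89. It was followed there by AN3429 (0.99), AN6412 (0.99), AN3180 (1.11) and AN2846 (1.19). It was the only gene among the first 5 by both measures. Even so, its level was lower than that of pst2 in every one of the 6 libraries.

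In the gene order of the reference table, on chromosome VIII, the neighbours of pst2 stayed at modest levels. Of the 5 genes on either side, 7 were raised, 2 lowered and 1 did not pass, with a median log2 fold change of 0.42. Over all tested features 83.5% changed, 40.6% raised and 42.9% lowered, with a median of -0.04, so the share of neighbours called was near that of all features. When libraries were scaled by size alone the split was 4 raised, 3 lowered and 3 not passing, and with limma on log2(RPKM + 1) it was 3, 3 and 4. The highest tyrosol mean among the 10 neighbours was 139.5 RPKM, that of AN0299, and the highest untreated mean was 59.9 RPKM, also that of AN0299.

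The genes flanking pst2 directly changed by small amounts. On one side was yth1, whose yeast counterpart encodes a zinc finger subunit of the messenger RNA cleavage and polyadenylation factor, with 40.1, 37.9 and 32.4 RPKM in the tyrosol libraries and 26.9, 31.6 and 33.6 RPKM in the untreated libraries. Its log2 fold change was 0.49 ± 0.11 (edgeR adjusted p = 0.00091), a call that was lost with limma on log2(RPKM + 1) (adjusted p = 0.071). On the other side AN0296 had 34.3, 37.4 and 30.0 RPKM with tyrosol and 21.6, 31.6 and 30.1 RPKM without. Its log2 fold change of 0.52 ± 0.14 (adjusted p = 0.0036) was not called with library size only (adjusted p = 0.068) or with limma on log2(RPKM + 1) (adjusted p = 0.11). The RPKM ranges of both genes overlapped between the groups. On TMM-scaled log2 CPM the groups did not overlap for either gene, as for 84.8% of the tested features.

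Larger rises lay a few genes away. AN0300 was raised to 63.2, 68.9 and 56.9 RPKM with tyrosol, against 6.15, 6.51 and 7.31 RPKM without (3.47 ± 0.11, edgeR adjusted p = 9.5e-12). AN0301 was raised by 2.36 ± 0.10 on the log2 scale (adjusted p = 9.4e-11) and AN0299 by 1.45 ± 0.10 (adjusted p = 9.7e-09). On the other flank AN0294 was lowered to 6.85, 6.13 and 5.79 RPKM with tyrosol, against 44.4, 44.6 and 30.4 RPKM without (-2.45 ± 0.16, adjusted p = 6.8e-09).

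The other neighbours differed by less. The Cdc48 cofactor gene npl4, at 0.35 ± 0.08, and the protein phosphatase methylesterase gene ppe1, at 0.27 ± 0.09, lost their calls with library size only and with limma on log2(RPKM + 1). Both roles are known from yeast. The call of ppe1 was also lost without tyrosol replicate 3 (adjusted p = 0.06). AN0302, at -0.69 ± 0.22, lost its call without tyrosol replicate 1 (adjusted p = 0.051). AN0292, at -0.15 ± 0.08 (adjusted p = 0.088), was called lowered with library size only (adjusted p = 0.00056), with limma on log2(RPKM + 1) (0.00089) and without untreated replicate 1 (0.046).

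**Figure D4:**
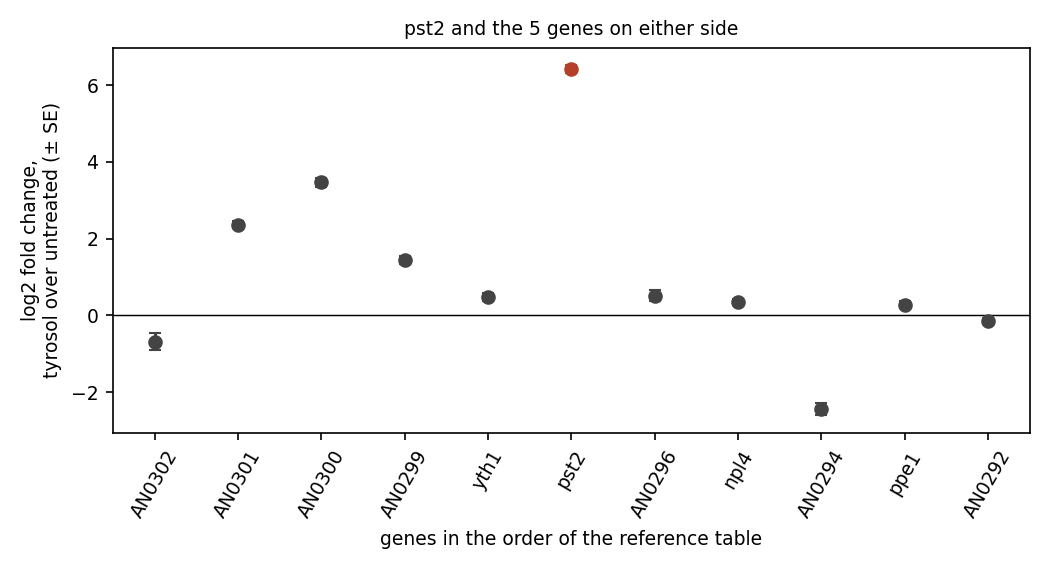
Log2 fold change, tyrosol over untreated (TMM scaling, error bars SE), of pst2 in red and of the 5 genes on either side in black, in the order of the reference table. The value of pst2 is 6.42 and those of the 10 neighbours lie between -2.45 and 3.47.

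Other genes that handle quinones were looked for by symbol in the reference table. Of 14 symbols of quinone and flavodoxin genes, pst2 was the only one found. Of 36 symbols of ubiquinone synthesis and quinone-linked respiration 3 were found, of which 2 were lowered and 1 did not pass, with a median log2 fold change of -0.29. With 42.9% of all tested features lowered and 83.5% called, so few genes say nothing about the list. The gene coq4, needed for ubiquinone synthesis, had 50.7, 52.1 and 50.1 RPKM in the tyrosol libraries and 84.6, 78.9 and 67.8 RPKM in the untreated libraries (-0.37 ± 0.10, edgeR adjusted p = 0.0031). The succinate dehydrogenase subunit gene sdh2, whose enzyme reduces ubiquinone, had 172, 172 and 173 RPKM with tyrosol and 254, 238 and 245 RPKM without (-0.29 ± 0.08, adjusted p = 0.0035). The symbol nde1 names, in yeast, an NADH dehydrogenase on the outer face of the inner mitochondrial membrane. Here AN6125 was matched by this symbol alone, and whether it encodes such an enzyme was not checked. Its log2 fold change was -0.13 ± 0.09 (edgeR adjusted p = 0.22). It was called lowered with library size only (adjusted p = 0.0029), with limma on log2(RPKM + 1) (0.0075) and without untreated replicate 3 (0.049). In both groups these 3 genes lay well below the tyrosol level of pst2, and coq4 and nde1 lay near its untreated level.

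Antioxidant enzymes and their regulators, to which yeast PST2 is linked through Yap1, gave 11 genes from 49 symbols. Of these, 8 were raised, 2 lowered and 1 did not pass, with a median log2 fold change of 0.32. The share called was near the 83.5% of all tested features, of which 40.6% were raised and 42.9% lowered. With library size only, or with limma on log2(RPKM + 1), 5 were raised and 2 lowered. The gene yap1, for the bZIP transcription factor named above, was raised to 179, 176 and 157 RPKM in the tyrosol libraries, against 72.5, 80.5 and 74.1 RPKM in the untreated libraries (1.39 ± 0.09, edgeR adjusted p = 4.6e-09). The gene skn7, for a response regulator that acts with Yap1 in yeast, was raised to 111, 107 and 109 RPKM with tyrosol, against 29.1, 28.8 and 31.3 RPKM without (2.10 ± 0.08, adjusted p = 5.1e-11).

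The enzymes of that list did not move as one. The catalase gene cat1 was raised to 2243, 2304 and 2326 RPKM with tyrosol, against 1097, 876 and 809 RPKM without (1.53 ± 0.11, adjusted p = 2.5e-08). It was the member nearest to pst2 in tyrosol level. The glutathione reductase gene glr1 was raised by 1.02 ± 0.08. For the superoxide dismutase gene sod1 the log2 fold change was 0.20 ± 0.08 (adjusted p = 0.045). It turned to -0.03 with library size only and with limma on log2(RPKM + 1), and the call was lost when any 1 library other than untreated replicate 2 was left out (adjusted p = 0.054 to 0.12) and with no filter on low counts. The catalase gene catA, whose transcript is known from conidia, fell to 0.116, 0.183 and 0.179 RPKM with tyrosol, against 9.45, 9.26 and 4.57 RPKM without (-5.35 ± 0.39, adjusted p = 2.9e-08). The bZIP regulator gene atfA fell by 1.64 on the log2 scale (adjusted p = 2e-07). The gene matched as ccpA was at -0.01 ± 0.34 (adjusted p = 0.99).

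Of 23 symbols of the hexose monophosphate shunt and NADPH supply, only the transketolase gene tktA was found, and it was raised by 0.80 ± 0.09 (edgeR adjusted p = 1.6e-06). Over all tested features 83.5% were called, 40.6% raised and 42.9% lowered, so 1 gene says nothing about that list. Of 12 symbols of tyrosine, homogentisate and phenylacetate breakdown 4 were found, and hmgA, hmgX, fahA and maiA were all raised, by 7.28 to 9.06 on the log2 scale. Over all tested features 0.887% were called raised with a fold of at least 64. The list was chosen with earlier results of these data known. The fold changes of the 4 genes were larger than that of pst2, but their levels were lower in every library. The highest of them with tyrosol, fahA, for fumarylacetoacetase, had 957, 1017 and 849 RPKM in the tyrosol libraries and 2.37, 1.88 and 1.86 RPKM in the untreated libraries.

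**Figure D5:**
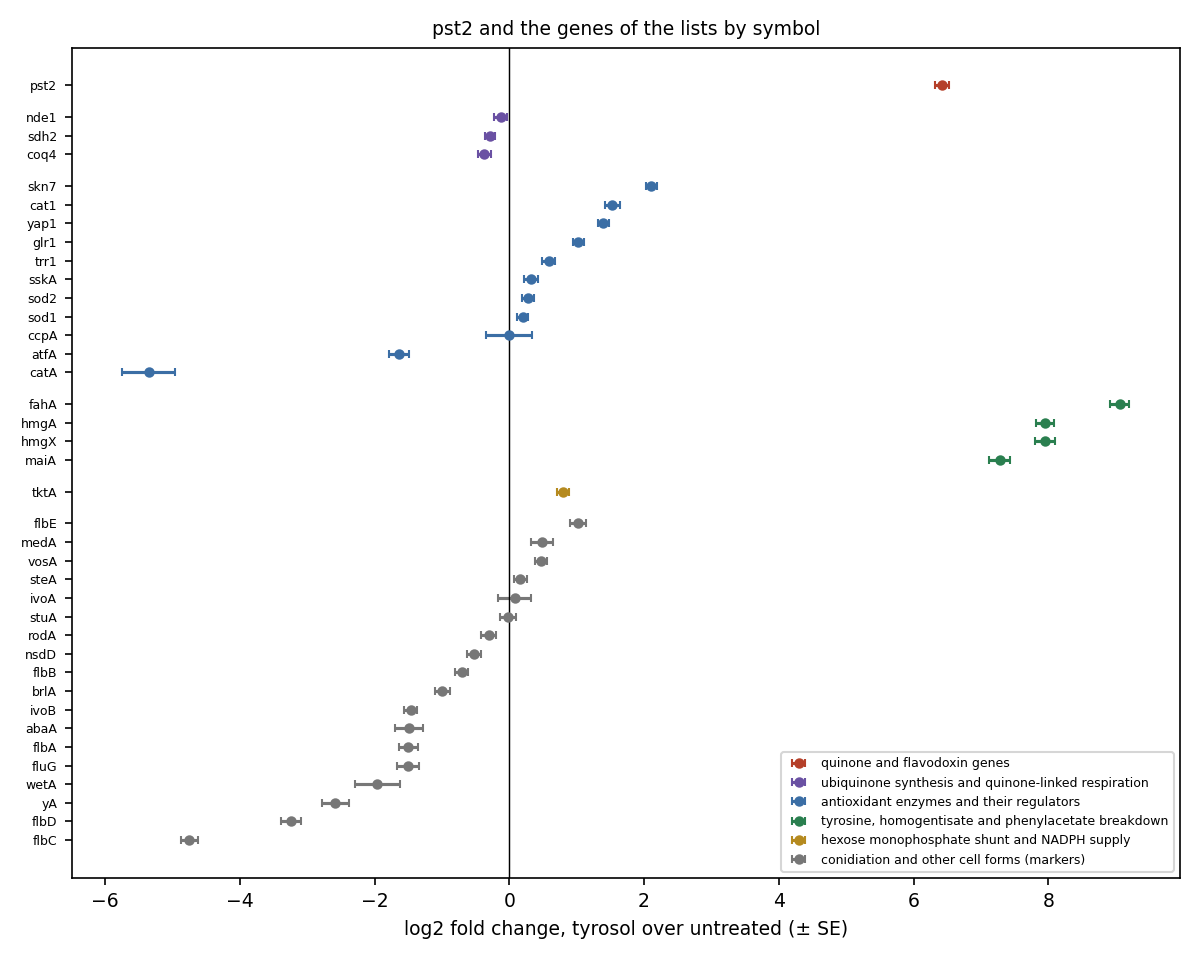
Log2 fold change, tyrosol over untreated (TMM scaling, error bars SE), of pst2 and of the tested genes found for each list of symbols, coloured by list. The 4 homogentisate genes lie at 7.28 to 9.06 and pst2 at 6.42, and the antioxidant genes run from -5.35 to 2.10.

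The labelled tissue is mycelium, and genes of conidiation and sexual development served to look for other cell forms. Of 24 symbols 19 were found and 18 tested: 3 were raised, 12 lowered and 3 did not pass, with a median log2 fold change of -0.85. Over all tested features 83.5% were called, 40.6% raised and 42.9% lowered. The share of the 18 that was called was near that 83.5%, but the split was not alike. A larger share of the 18 was lowered, and a smaller share raised, than of all features. This difference in split was not tested. Their summed level ran from 755 to 826 RPKM in the tyrosol libraries and from 1385 to 1486 RPKM in the untreated libraries. The members were not alike in level. The conidiation regulator genes abaA and wetA averaged 0.792 and 0.270 RPKM with tyrosol and 2.64 and 1.23 RPKM without, and the regulator gene brlA averaged 11.0 RPKM with tyrosol and 25.7 RPKM without. Other members were well expressed in both groups: ivoB averaged 151 ± 8.25 RPKM with tyrosol and 486 ± 66.6 RPKM without, and the hydrophobin gene rodA 131 ± 20.5 RPKM with tyrosol and 189 ± 13.5 RPKM without (SD, n = 3 each). Highest with tyrosol was stuA, at 232 ± 19.9 RPKM, against 275 ± 48.8 RPKM without. It did not pass (-0.02 ± 0.12, edgeR adjusted p = 0.86). The gene dewA, for a spore wall hydrophobin, had at most 3 reads in any library and was not tested. The largest falls among them were in flbC (-4.75 ± 0.13) and flbD (-3.24 ± 0.15), which encode regulators upstream in conidiation, in the conidial laccase gene yA (-2.58 ± 0.20) and in wetA (-1.96 ± 0.34). At the other end were the conidiation genes flbE (1.02 ± 0.12) and medA (0.49 ± 0.16), the spore viability gene vosA (0.47 ± 0.09) and the sexual development gene steA. The last did not pass (0.16 ± 0.10, edgeR adjusted p = 0.15), though it was called raised without untreated replicate 1 (adjusted p = 0.0085). The call of medA was lost with library size only and with limma on log2(RPKM + 1) (adjusted p = 0.14 and 0.24), and without tyrosol replicate 3 or untreated replicate 2 (adjusted p = 0.082 and 0.076). The part of such cell forms in the level of pst2 was not tested. In bulk RNA of this kind, fewer cells of a type and less RNA per cell cannot be told apart.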

How the data were processed

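Of software, the submitters' processing notes list HISAT2 2.1.0, DESeq2 1.24.0, FastQC and edgeR without saying what each did. Per the labels' protocols, libraries were made from total RNA with the TruSeq RNA kit. Which build, annotation, counter and strand option lay behind the counts is not given in the sources used here, so reads of overlapping or antisense genes may be shared. Per the file headers, the authors deposited counts, lengths and RPKM values of 10988 features. The counts are whole numbers, and the deposited RPKM values equal count over length and column total to within a relative 1.26e-14. T columns were assigned to tyrosol and K columns to the untreated group, on the assumption that K stands for kontroll (Hungarian for control), and column numbers were assumed to be the replicate numbers of the titles. The labels spell out neither reading, and every group and replicate value rests on them.

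Ranks cover the 10748 AN genes. The test was that of edgeR 4.0.16 (R 4.3.3) on counts: filterByExpr, TMM factors, the two-sided quasi-likelihood test, and Benjamini-Hochberg adjustment over 8905 features with a threshold of 0.05. The SE is the log2 fold change over the square root of F. The procedure was also run on simulated data in which few of the genes changed. In these libraries 83.5% of the tested features were called, so that run does not check the calls made here. Log2 CPM used a prior count of 2. Symbols and gene order came from a RefSeq table (assembly ASM1142v1), which matched 10029 AN genes and gave a symbol to 778 of them. Alternatives used DESeq2 1.42.0 and limma 3.58.1.

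The gene and the lists were chosen with earlier results of these data known. Named genes are the 5 neighbours on either side, the 3 genes above and below in each order of levels, the 5 genes of most similar pattern, and list members (all where 8 or fewer, otherwise the 4 at each end). Genes named outside this rule (AN4218, AN5940, AN2343, abaA, brlA, ivoB, rodA, stuA and dewA, and the 4 after AN8764 in the likeness of level) were chosen after their values were seen. The labels give no batch or date. Same-numbered libraries of the 2 groups were not treated as pairs.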

Additional observations from a re-analysis of the deposited data

How the results depend on the processing

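The log2 fold change of pst2, 6.42, ran from 6.37 to 6.47 with 1 library left out. It was 6.19 with library size only and 6.17 with limma on log2(RPKM + 1). Both settings scale by library totals, and library size only shifted the median of all features by -0.22 on the log2 scale. The raised and lowered shares of all features therefore depended on the scaling. Library size only called 3069 features raised and 4401 lowered, against 3616 and 3816 with TMM. The log2 fold change of pst2 was 6.46 with DESeq2 size factors and with the DESeq2 Wald test. It was 6.41 with no filter on low counts and 6.44 with at least 50 reads in 3 libraries. The mean rank of pst2 by RPKM was 5.33 with tyrosol and 1918 without; by read count it was 12.7 and 3257, since counts favour long genes. Of the 10 neighbours 9 were called, and of the 4 nearest 4, near the 83.5% of all tested features. Deviations from the group means were not alike in libraries of the same replicate number (correlations -0.08, -0.01 and -0.04). Of 3 numbers, 0 matched best with their own. This cannot settle whether the cultures were paired, since the replicate numbers of the columns were assumed. With the replicate number as a block the fold change of pst2 was 6.42 and 7383 features were called changed, against 7432. The log2 fold change of sod1 reversed to -0.0272 with library size only and to -0.0250 with limma on log2(RPKM + 1), and its call was lost with the replicate block (adjusted p = 0.052). A rise was called for AN5245 (2.84, adjusted p = 0.0081), and that call was lost without tyrosol replicate 2 (0.37, adjusted p = 0.37), without untreated replicate 2 (adjusted p = 0.053), with the replicate block (adjusted p = 0.076) and with limma on log2(RPKM + 1) (adjusted p = 0.18). A planned comparison with proteins similar to Pst2 was not run. Depth limits genes with few reads, such as wetA and catA with tyrosol, and not pst2.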
